A study of Gymnopus androsaceus with 9 samples.

Results

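A set of 150 genes of the fungus Gymnopus androsaceus stood low in mycelium after 2 months on pine needles and was at least 2-fold higher after 5 months. On the scale used to choose them, the genes were still about as high after 10 months. How nearly they kept this level depended on the scaling, as described below. These members were chosen from 29375 listed genes by their own levels at the 3 harvests. A level here is the number of reads unique to a gene, divided by the size factor of its library and expressed relative to a mean library, called scaled CPM (counts per 1000000). To be kept, a gene needed a mean of at least 10 scaled CPM at 5 or 10 months and means at both of these harvests at least 2 times the 2-month mean. The 5- and 10-month means also had to lie within 1.5-fold of each other, with every 2-month library below all 6 later libraries. These criteria were met by 292 genes, and the 150 with the largest rise were kept, the rise being the lower of the later means over the 2-month mean.

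Total RNA was sequenced from mycelium harvested at 2, 5 or 10 months, with 3 biological replicates, and so 3 libraries, per harvest. All groups shared one substrate and treatment: Scots pine needles mixed with sand, sterilised by gamma radiation, inoculated with a needle the fungus had already colonised, given ammonium chloride, and kept sealed at a constant temperature. There was no uninoculated or unfed control, so harvest time is the only difference between the groups that the labels record. Libraries held 21939600 to 96533143 unique reads, with the smallest total at 2 months and the largest at 10 months. The tables pair no protein ID with a name, product or position. Members are therefore given by their JGI protein ID (the number the Joint Genome Institute gives a gene model), nothing is said of what they encode, no sequence is shown, and the label of mycelium could not be checked against marker genes.

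Gymnopus androsaceus, the horsehair fungus, lives on fallen conifer needles and is known for the thin black cords with which it spreads through litter. Fungi of this kind feed by secreting enzymes that break down cellulose, hemicellulose, pectin and lignin, and by taking up the released sugars and nitrogen. Pine litter is poor in nitrogen, and its easily used carbon is generally taken before the more resistant wall material. Which of these activities the members belong to cannot be read from protein IDs.

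As a group, the members' share of unique reads went from 0.519% ± 0.0516 at the first harvest to 3.61% ± 0.0972 after 5 months and stood at 2.70% ± 0.546 after 10 (SD, n = 3 for each harvest). The share was 0.463% to 0.565% in the 2-month libraries, 3.51% to 3.70% in the 5-month libraries, and 2.86%, 2.09% and 3.14% in 10-month replicates 1, 2 and 3. The lowest of the later shares was in 10-month replicate 2. There the most abundant gene of the whole series (ID 507124, not a member) took 11.7% of reads. It took 6.63% and 0.413% in 10-month replicates 1 and 3, and 10.1% in 2-month replicate 2. The part of that gene in the lower share was not tested. The median member stood at 7.79 ± 0.646 scaled CPM at 2 months, and at 49.3 ± 6.38 and 50.5 ± 6.36 at the 5- and 10-month harvests (SD over libraries, n = 3 for each). These values chose the members and are given as a description. In bulk RNA, more mycelium of one kind and more transcript per cell cannot be told apart.

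**Figure D1:**
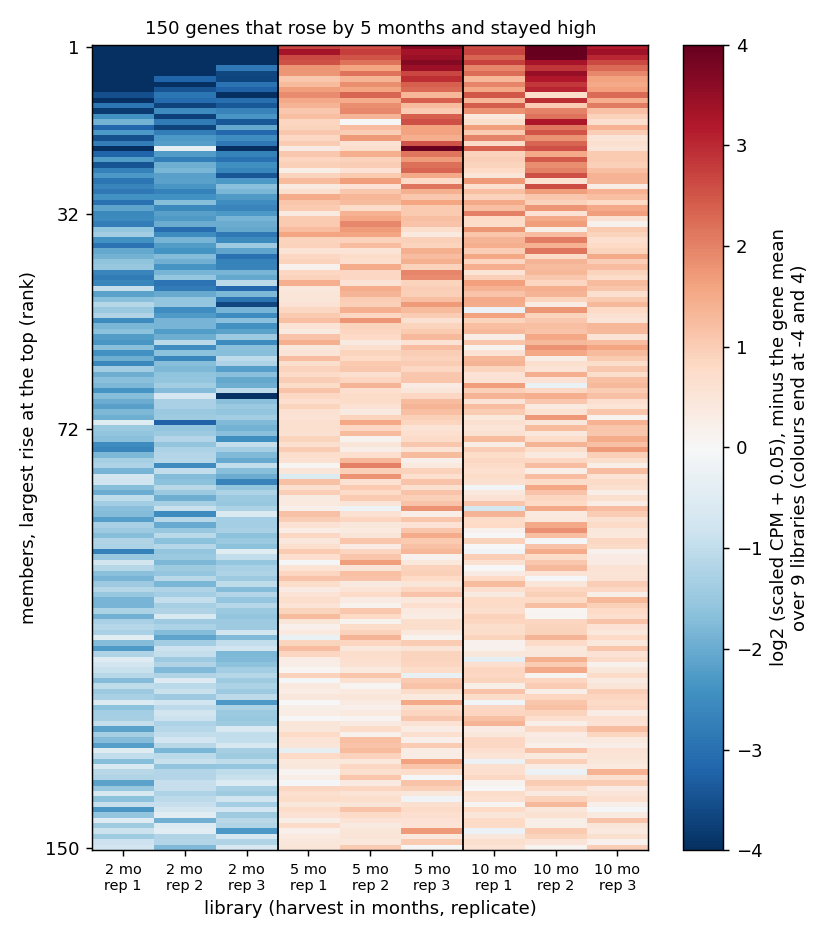
Level of each of the 150 members (rows, largest rise at the top) in each of the 9 libraries (columns), as log2 of scaled CPM plus 0.05 minus the gene's own mean; colours end at -4 and 4. The 3 columns of 2 months are blue in nearly every row, as the criteria require, and the darkest red lies in 5-month replicate 3 and 10-month replicate 2 among the members with the largest rise.

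The rise spanned a wide range. In 6 members it was 100-fold or more, in 26 between 10- and 100-fold, in 40 between 5- and 10-fold, and in the remaining 78 below 5-fold. At 2 months, 14 members had a mean below 1 on this scale, 69 a mean from 1 to below 10, 56 from 10 to below 100, and 11 a mean of 100 or more. Most members were therefore already transcribed at a measurable level at the first harvest. No member lacked reads in all 2-month libraries, 2 lacked reads in at least 1 of them, and 1 had fewer than 10 reads over the 3 libraries. The lowest of the 6 later libraries was at least 2 times the highest 2-month library in 116 members, and less than 1.5 times as high in 10. The criteria already required every 2-month library to be below all later ones, as it was in 12.2% of tested genes. These counts are therefore only a description.

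ID 921610 had the largest rise, 686-fold. It stood at 0.310, 0.187 and 0.546 scaled CPM in 2-month replicates 1, 2 and 3, at 184.5, 170 and 361 in the 5-month replicates, and at 174, 470 and 258 in the 10-month replicates. At the first harvest these levels rest on 21, 6 and 15 reads, not far above the floor of 3 reads per library, which covers counting error only. The gene was thus below 1 at 2 months and at 170 or above, to the nearest unit, in each later library, with the later harvests overlapping. ID 922432 followed at 538-fold, from 0.295, 0.187 and 2.40 at 2 months to 582, 393 and 577 at 5 months and 376.5, 1196 and 608 at 10 months. Its 2-month level was lowest in replicates 1 and 2 and higher in replicate 3, which alone held 66 of its 92 unique reads at that harvest. With that library left out, the log2 fold change at 5 against 2 months was 10.97 in place of 9.20.

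A large part of the reads of ID 922432, 39.9% over all libraries, mapped elsewhere as well, so its own level is uncertain. The same holds for ID 923077, whose rise of 394-fold was the next largest and of whose reads 69.4% also map elsewhere. Unique reads placed ID 923077 at 0.443, 0.468 and 2.04 scaled CPM at 2 months, 314, 292 and 555 at 5 months, and 254, 784 and 412 at 10 months. Both genes have an implied transcript length of 590 bases and were highest in the same library at each harvest except 5 months; whether they share reads with each other cannot be read from the tables. When shared reads were counted too, ID 923077 had means of 3.66, 1100 and 1607 at 2, 5 and 10 months, so the rise was seen in shared and unique reads alike. Its log2 fold change on unique reads at 5 against 2 months was 8.71, and 9.72 without 2-month replicate 3.

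**Figure D2:**
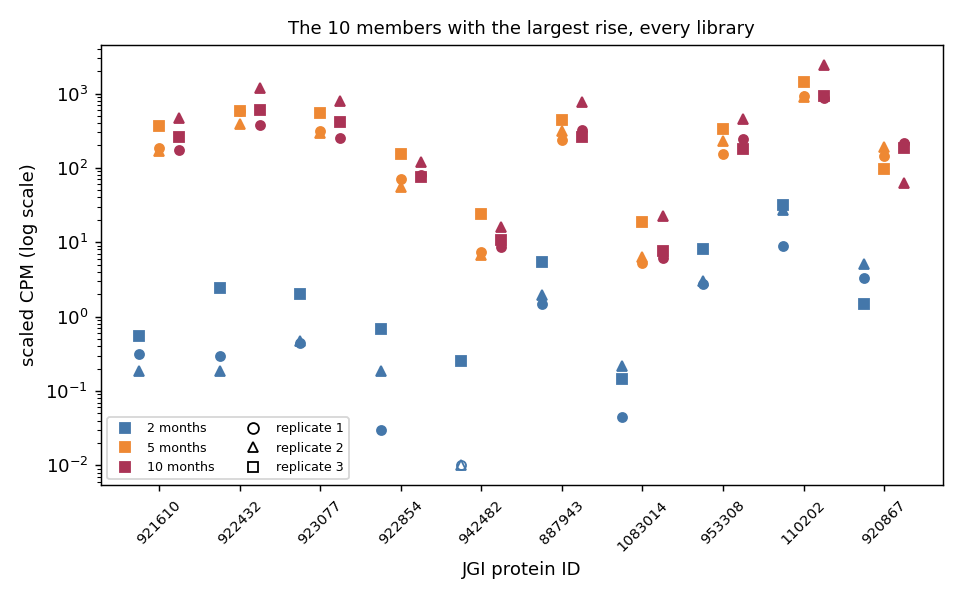
Scaled CPM (log scale) of the 10 members with the largest rise, 1 point per library, coloured by harvest and shaped by replicate; open points at 0.01 mark libraries with no read. Every 2-month point lies below all later points of its gene, as the criteria require, and in 8 of the 10 genes the highest later points are 5-month replicate 3 and 10-month replicate 2.

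Of the first 10 members by rise, 6 had an implied transcript length under 700 bases and the median was 590 bases. Among the 32 members with a rise of 10-fold or more, these first 10 included, 9 (28.1%) were that short and the median was 1130 bases, whereas 23.3% of all members and 24.2% of all 20168 tested genes were that short. Over all members the median length, 1132 bases with a range of 207 to 2754, was close to the 1107 bases of tested genes. Lengths were not part of the rule, but the first 10 are too few for more than a description. In a member with a short transcript and a low early level, the 2-month mean rests on few reads: ID 942482, at 384 bases, had 7 unique reads over that harvest.

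The order of members changed when level was taken per length and reads that map elsewhere were counted too. By RPKM (the authors' values, in reads per kilobase of transcript and 1000000 reads), ID 931949 was the highest member at 5 months, going from 511 ± 306 RPKM at 2 months to 3904 ± 279 at 5 months, with 2966 ± 1416 after 10 months (SD, n = 3 for each harvest). In scaled CPM it went from 362, 174 and 144 at 2 months to 1716, 1484 and 1666 at 5 months and 2559, 1536 and 1263 at 10 months. The 5-month libraries lay close together and within the spread of the 10-month libraries. ID 550982 had the highest lower later mean in scaled CPM and was sixth among members in RPKM at 5 months. In scaled CPM it held one of the tightest plateaus, with a rise of 10.9-fold. It stood at 200.1, 201 and 226 at 2 months, 3018, 2745 and 2306 at 5 months, and 2075, 2277 and 2500 at 10 months. In RPKM the plateau was not as level, with 152 ± 21.1 at 2 months, 2127 ± 304 at 5 months and 1244 ± 366 at 10 months.

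A few abundant members carried much of the group. The 10 with the highest lower later mean together had 0.208% ± 0.0378, 1.71% ± 0.0421 and 1.27% ± 0.302 of the unique reads after 2, 5 and 10 months (SD, n = 3 for each). The other 140 members together took 0.311% ± 0.0284, 1.90% ± 0.123 and 1.43% ± 0.254 in the same order. Both parts of the group were thus higher at the later harvests in every library. The median member stood at 9.70, 66.6 and 42.4 RPKM at the 3 harvests in order, beside 7.88, 8.85 and 5.95 RPKM for the median tested gene. At 2 months the median member was hence near the median tested gene in level.

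By edgeR's quasi-likelihood test fitted to all 20168 tested genes, which included all 150 members, 149 members were called higher at 5 than at 2 months and 148 higher at 10 than at 2 months. Of all tested genes, 11.6% and 17.5% were called higher in these comparisons. Higher in both were 148 members, beside 7.17% of tested genes, and every 2-month library lay below all later ones in all members, as required, beside 12.2% of tested genes. As the rule used the same contrasts and both share the 2-month libraries, nothing is read from these counts. The median log2 fold change of members was 2.46 at 5 against 2 months, reaching 9.45, and 2.39 at 10 against 2 months, reaching 9.77. The medians over all tested genes were -0.01 and -0.03. ID 981635 was called in neither comparison and ID 539322 was not called at 10 against 2 months. The former is also among the genes named by rule, while ID 539322 is named after its values were seen.

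ID 981635 was the least even member. It stood at 0.0295, 1.56 and 0 scaled CPM at 2 months, at 2.57, 3.33 and 32.5 at 5 months, and at 10.6, 12.4 and 2.92 at 10 months. Its 5-month mean rests on replicate 3, and the log2 fold change at 5 against 2 months was 4.70 with all libraries, 2.59 without 5-month replicate 3 and 9.12 without 2-month replicate 2. The share of its reads that map elsewhere too was 48.4%. ID 874585 was next in unevenness, with 5-month values of 8.40, 4.72 and 27.9 and 10-month values of 7.50, 44.2 and 7.31, over 2-month values of 1.21, 0.624 and 0.400. Its log2 fold change at 10 against 2 months was 4.59, and 3.20 without 10-month replicate 2; at 5 against 2 months it was 4.08, and 3.03 without 5-month replicate 3. The most even member was ID 955126, at 49.9, 45.1 and 60.1 scaled CPM at 2 months, 171, 175 and 163 at 5 months, and 208, 223 and 224 at 10 months. ID 983685 was similarly even, with later libraries between 114 and 154 and 2-month libraries between 23.7 and 42.3.

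Replicates of one harvest differed more in members than in the median tested gene, as they also did in genes that rose without a plateau. The median coefficient of variation (SD over mean, n = 3) was 32.5%, 24.9% and 27.8% for members at the 3 harvests in order, against 22.7%, 16.7% and 16.7% for all tested genes. It was 22.4%, 16.8% and 18.0% in the 142 genes that met the criteria with a smaller rise. Genes that met the other criteria but were over 1.5 times as high at 10 as at 5 months (261 genes) had 29.0%, 21.4% and 34.1%, and those over 1.5 times as high at 5 months (52 genes) had 36.6%, 22.0% and 31.4%. Pooled over both later harvests the spread was 29.4% in members, 31.1% in the 261 genes and 27.4% in the 52. No test was made of these differences. The spread within the later harvests, pooled over both, had a median of 47.6% in the 32 members with a rise of 10-fold or more, 27.8% in the 40 with a rise between 5- and 10-fold, and 25.3% in the 78 below. The rule bounds this spread only in that no later library may fall to the 2-month level, which leaves most room where the rise is large.

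The later libraries differed in a shared way. Highest in replicate 3 at 5 months and in replicate 2 at 10 months were 59 of the 150 members (39.3%), beside 21.3% of tested genes, and 22 of the 32 members with a rise of 10-fold or more. In these 59, 5-month replicate 3 was a median of 1.59 times the mean of the other 5-month libraries, and 10-month replicate 2 a median of 1.81 times the mean of its own. A smaller set of 17 members (11.3%, beside 17.4% of tested genes) was lowest in both libraries, with median ratios of 0.612 and 0.617. Replicates are separate microcosms and have no order, and the pattern was looked for after the values were seen, so it has no test.

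ID 110202 shows the first of these patterns, at 934, 890 and 1412 scaled CPM in the 5-month replicates and 863, 2442 and 915 in the 10-month replicates, over 8.86, 27.0 and 31.4 at 2 months. ID 920867, the shortest member at 207 bases, shows the second, at 142, 191 and 97.0 at 5 months and 217, 63.0 and 186 at 10 months, over 3.32, 5.12 and 1.49 at 2 months. ID 955745 went the same way as ID 920867, with 796 in 5-month replicate 3 against 1114 and 1486, and 708 in 10-month replicate 2 against 1539 and 1198. These examples were chosen after their values were seen. The first pattern depended on how 10-month replicate 2 was scaled: with library totals alone, in place of size factors, 26 members (17.3%) rather than 59 were highest in both libraries, beside 2.9% of tested genes. With TMM and upper-quartile scaling the members' share was 37.3% and 36.0%, beside 19.3% and 18.5% of tested genes.

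**Figure D3:**
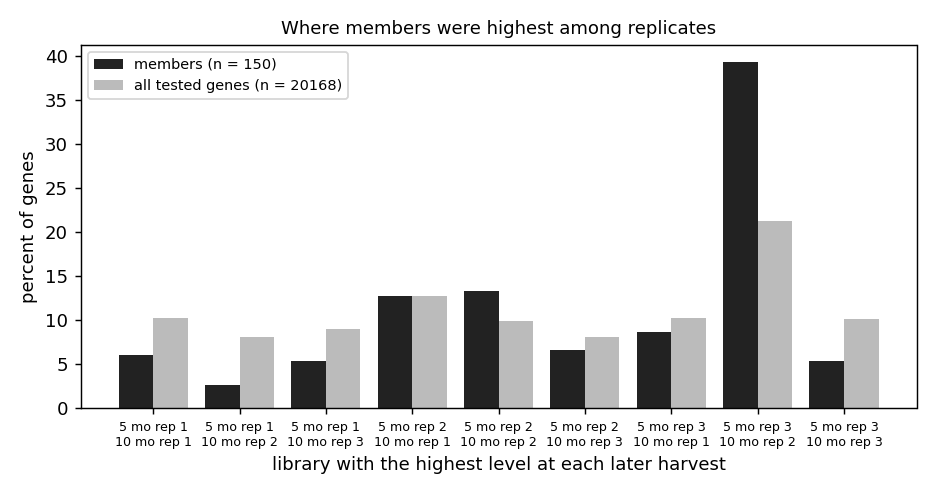
Percent of the 150 members (black) and of the 20168 tested genes (grey) whose highest 5-month and highest 10-month library were the pair named under each bar. The pair of 5-month replicate 3 and 10-month replicate 2 holds 39.3% of members and 21.3% of tested genes, the largest share in either.

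Between 5 and 10 months the members moved little on the scale that chose them. The 10-month mean was the higher in 88 members and the 5-month mean in 62, and the later means lay within 1.1-fold in 37 and within 1.2-fold in 75. The libraries of the later harvests overlapped in 134 members and were apart in 16, with the 10-month libraries above in 10 and below in 6; of all tested genes 41.8% were apart. The median log2 fold change at 10 against 5 months was 0.09, with a range of -0.57 to 0.57 that the rule fixes. By edgeR 1 member, ID 423936, was called at 10 against 5 months, while 18.1% of tested genes were called, and 11 members had an unadjusted p under 0.05. That gene had 38.7, 49.6 and 42.0 scaled CPM at 5 months and 26.7, 31.3 and 31.7 at 10 months, over 6.72, 7.36 and 8.99 at 2 months. Since the rule bounds the ratio of these means, neither low count is a result, and no share of tested genes is given for the unadjusted p.

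At the upper edge of the plateau, ID 1023512 had means of 2.37, 8.03 and 12.03 scaled CPM at 2, 5 and 10 months, and ID 961324 means of 59.8, 778 and 1148. In the latter the 10-month libraries stood at 484, 2054 and 906, so its higher 10-month mean lay in replicate 2, without which its log2 fold change at 10 against 2 months was 3.52 in place of 4.24. At the lower edge, beside ID 981635, ID 942660 had 111, 110 and 87.7 at 5 months and 87.4, 48.7 and 74.7 at 10 months. Its lowest value, too, was in 10-month replicate 2. On the deposited RPKM neither gene at the upper edge had the higher mean at 10 months: ID 1023512 went from 8.145 RPKM at 5 months to 7.86, and ID 961324 from 426 to 388. In 3 of these 4 members at the edges, 10-month replicate 2 was the library farthest from the others of its harvest.

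How high the members stayed rested on the scaling. On the deposited RPKM, which is scaled to library totals, the 10-month mean was below the 5-month mean in 147 of 150 members, with a median ratio of 0.716. The 10-month mean was also the lower in 84.2% of tested genes, whose median ratio was 0.678. RPKM differs from the scale of the rule by library and in counting reads that map elsewhere too. Since the rule bounds this ratio in members on its own scale, no comparison with tested genes is read from these values. All 150 members kept both later RPKM means at 2 times the 2-month mean or more, and 143 kept every 2-month library below all later ones. With unique reads scaled to library totals alone, 86 members met all criteria, and in each of the 58 that left the 1.5-fold bound the 5-month mean was the higher. The rise of at least 2-fold since 2 months thus held on each of these scales, while later means within 1.5-fold held in all members with TMM scaling, in 147 with upper-quartile scaling, in 92 on library totals and in 93 on RPKM.

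**Figure D4:**
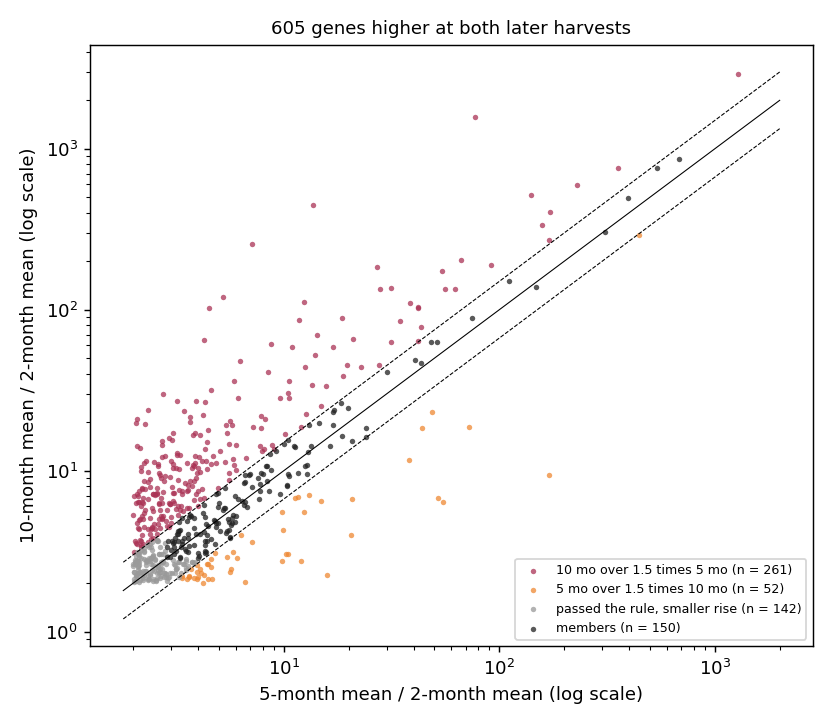
Ratio of the 5-month to the 2-month mean (horizontal) against the ratio of the 10-month to the 2-month mean (vertical), both on log scales, for the 605 genes that met the level, fold and separation criteria. The solid line marks equal later means and the dashed lines a 1.5-fold difference; members (black) lie between the dashed lines, 261 genes lie above them and 52 below.

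Genes with a level plateau were 1 of 3 classes among genes at least 2-fold up at both later harvests. The criteria leave out genes that rose at only 1 of the later harvests, so these classes are not all the outcomes of a rise. Of the 605 genes that met the level, fold and separation criteria, 292 (48.3%) had later means within 1.5-fold, 261 (43.1%) were over 1.5 times as high at 10 as at 5 months, and 52 (8.60%) were over 1.5 times as high at 5 months. How many genes went up or down after 5 months depended on the scaling. With library totals alone 500 genes met the 3 criteria, of which 241 (48.2%) had later means within 1.5-fold, 164 (32.8%) were higher at 10 months and 95 (19.0%) higher at 5 months, and on RPKM the higher ones numbered 169 and 95 of 512. With TMM they numbered 260 and 53 of 606, and with upper-quartile scaling 238 and 53 of 579. Length and shared reads were not used by the rule. Members are only the 150 genes with the largest rise among those with a level plateau, while the other classes are whole. Median length was 1288 bases in the 142 genes that met the criteria with a smaller rise. It was 1132 bases in members, 1197 in the genes that rose further and 1190 in those that fell back in part. The latter were by the criteria still at least 2-fold above 2 months. Reads that also map elsewhere made up over 10% in 13 members (8.67%), beside 8.31% of tested genes, 10.7% of the genes that rose further and 11.5% of those that fell back. No test was made of these differences. Besides ID 923077, the highest share was 65.5%, in ID 967425, which stood at 9.89, 20.7 and 17.6 at 2 months, 89.1, 81.3 and 96.7 at 5 months, and 75.4, 60.1 and 69.6 at 10 months.

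The limit on the number of members fell at a rise of 2.86-fold. Just inside it were ID 847112, with means of 276, 909 and 793 scaled CPM at 2, 5 and 10 months, and ID 144417, with means of 9.40, 26.9 and 27.5. Just outside were ID 387019, with means of 166, 476 and 492, and ID 970477, with means of 6.01, 21.2 and 16.9. Harvest means of 52.6, 105 and 143 in ID 923180, and of 20.9, 41.4 and 41.5 in ID 968998, fell just short of the 2-fold criterion itself. No break in the values separates members from these neighbours.

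The rise was then examined in libraries that had no part in choosing the genes. The rule was applied to 6 libraries, leaving out the replicate of one number at each harvest, and the 150 genes it chose were looked up in the 3 libraries left out. With replicate 1 left out, 117 of 150 (78.0%) were at least 2-fold above 2 months at both later harvests in the left-out libraries, beside 8.49% of tested genes. With replicate 2 left out these were 123 (82.0%) beside 8.96%, and with replicate 3 left out 129 (86.0%) beside 11.0%. The mean share was 82.0%, beside 9.47% of tested genes. The 3 sets of genes overlap with each other and shared 116, 96 and 110 genes with the members, so these are not 3 independent checks.

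The size of the rise shrank in the left-out libraries. The median rise was 4.78-, 5.09- and 4.09-fold in the libraries that chose the genes, and 3.75-, 4.10- and 3.76-fold in those left out, with replicates 1, 2 and 3 left out in turn. Over tested genes the median of the same quantity was 0.868, 0.835 and 0.843. The plateau was harder to examine in this way, as each left-out harvest was then a single library. The left-out 5- and 10-month libraries lay within 1.5-fold of each other in 100, 62 and 86 of the 150 chosen genes (66.7%, 41.3% and 57.3%), beside 67.6%, 54.2% and 59.5% of tested genes. These shares were near or below the background. Replicates of the same harvest differed more in members than in the median tested gene, with a median coefficient of variation of 24.9% against 16.7% at 5 months. The plateau was thus not seen beyond the background in the left-out libraries, and the part of this spread in that outcome was not tested.

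**Figure D5:**
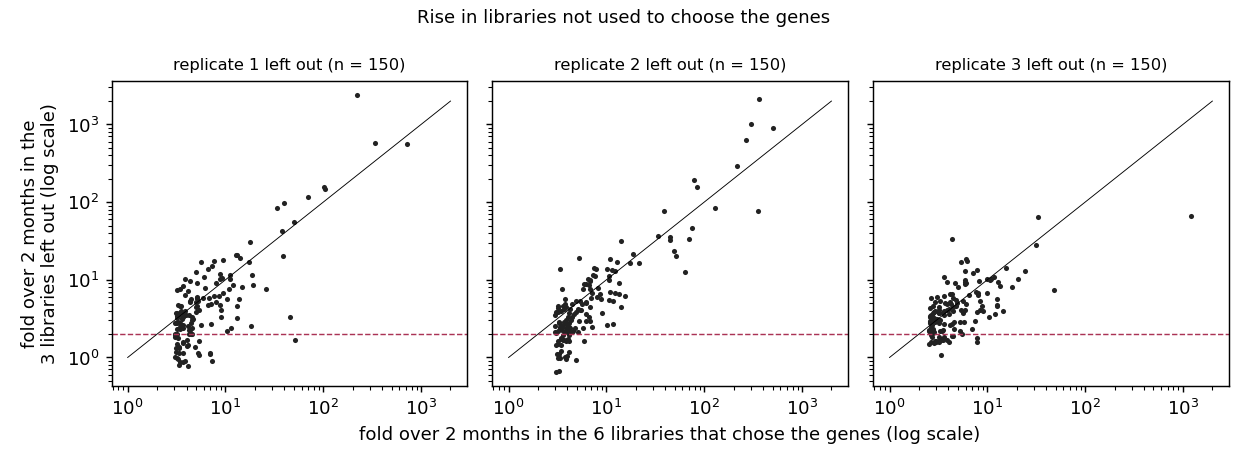
Rise over 2 months (lower of the later values over the 2-month value, log scales) of 150 genes chosen from 6 libraries, in those libraries (horizontal) and in the 3 libraries left out (vertical), for each replicate number left out. Points above the dashed line rose at least 2-fold in the libraries left out, which was 117, 123 and 129 of 150.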

How the data were processed

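Per the file headers, the authors deposited 2 whole-number counts (reads unique to a gene, and all its reads) beside RPKM, for 29375 JGI protein IDs in each library. All reads of a gene over RPKM and over their sum implied 1 whole-number length, within 0.01 bases, for each of 25486 genes with reads. Which aligner, counter, build and gene models were used is not given in the sources read here.

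Unique gene reads were divided by median-of-ratios size factors (DESeq2 1.42.0; 0.483 to 1.83) and scaled to the mean library of 56896282 reads. Tests used edgeR 4.0.16 in R 4.3.3 (TMM, filterByExpr, robust quasi-likelihood, all 9 libraries in one fit, Benjamini-Hochberg adjusted p under 0.05) on 20168 genes. The fit and the rule were run on simulated counts with the same spread for every gene. Expected counts of unchanged genes there were proportional to library totals. That run therefore could not check the scaling on which the later means depend. Tables were made in Python 3.11.15 with pandas 2.3.3 and figures with matplotlib 3.10.9.

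Members and lists were chosen with earlier results of these data known. Named genes were those at the ends of rise, level, 10- to 5-month ratio, unevenness between later replicates and shared reads, and on either side of the limits; others were chosen after their values were seen. Product-word lists found no members. For left-out libraries, size factors came from all 9 libraries. Alternatives were other scalings, reads, filters, tools, minimums and samples.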

Additional observations from a re-analysis of the deposited data

How the results depend on the processing

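Between 241 and 353 genes passed the rule over all alternatives, against 292. Of the 150 members, 86 passed with library totals alone and 83 on deposited RPKM, mostly because the 10-month mean then fell below the 5-month mean by over 1.5-fold; with the other alternatives 116 to 150 passed, the lowest without 5-month replicate 3, and 78 passed without each library in turn. Without the 3 libraries in which 6 genes took much of the reads 123 passed, with a single 10-month library left. Members called higher numbered 140 to 150 at 5 against 2 months and 143 to 150 at 10 against 2 months. In the main fit 11.6% and 17.5% of tested genes were called higher in these comparisons, and 18.1% were called at 10 against 5 months. Shares of tested genes in the alternative fits are not given. The rule used all these contrasts, so the counts of members called are only a description. The 1 member called at 10 against 5 months became 2 with DESeq2, 3 with only the compared harvests, and 0 to 2 when libraries were left out: 0 without 5-month replicate 1 or 2 or 10-month replicate 2 or 3, and 2 without 2-month replicate 1 or 5-month replicate 3. In the fit with the replicate block it was 0 by edgeR, with 6 members at an unadjusted p under 0.05; the block otherwise gave 146 and 147 calls against 2 months. Deviations of same-numbered libraries had r from -0.205 to 0.116, and those of differently numbered libraries r from -0.174 to 0.203. No sign was thus seen that the numbers pair libraries. Asking 1.5-fold of the left-out libraries gave 91.1% in place of 82.0%. Among the 19 genes named by rule, no log2 fold change against 2 months reversed with a call in either fit. Of 304 values compared with the main fit at 5 against 2 months, 6 lost their call and 3 gained one. At 10 against 2 months 2 of 304 lost it and 4 gained one. Genes named after their values were seen were not all covered. At 10 against 5 months, where the later means lie close, 0 to 7 of 19 named genes changed sign between fits, the most without 10-month replicate 2, none of them called in either fit. Their ratio of later means changed sides in 12 of 19 both with library totals alone and on RPKM; these checks were added after seeing the data. Precision is limited by 3 libraries per harvest and, for members with a 2-month mean under 1, by few reads.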
